A study of Mus musculus with 4 samples.

Results

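Autophagy delivers cytoplasmic material to the lysosome, and the vacuolar H+-ATPase (V-ATPase) is the proton pump that acidifies that organelle. Expression of the genes for both was compared between INK128-treated and control rOvaries. The rule for members used symbols only: every symbol starting with Atp6v0 or Atp6v1, every symbol with Atg followed by a digit, and Map1lc3a, Map1lc3b, Gabarap, Gabarapl1, Gabarapl2, Sqstm1, Becn1, Lamp1 and Lamp2. This gave 50 of the 54021 symbols in the table, of which 23 were V-ATPase symbols, 18 were Atg genes and 9 were the named autophagy and lysosome genes. Symbols ending in -ps were left out in both families, and 3 were removed for this. One V-ATPase symbol, Atp6v1fnb, is a neighbour of Atp6v1f rather than a subunit, and it was kept only as a count. Of the 50 members, 42 had a mean above 10 CPM (counts scaled to library size) and were tested, 16 of them V-ATPase genes and 26 of them autophagy and lysosome membrane genes. Another 6 passed only a mean CPM above 1, and 2 passed neither.

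The rOvaries were grafts that formed under the kidney capsule from aggregates of female fetal primordial germ cells and gonadal somatic cells carrying an actin-GFP transgene on a C57BL/6 background. All recipients, of INK128 and control grafts alike, were ovariectomized, young adult G2 Terc-/- mice on the C57BL/6 background. These are second-generation telomerase-deficient animals with shortened telomeres. The deletion was that of the recipients, and the paper names no Terc deletion in the donors of the graft cells. INK128, an inhibitor of the mTOR kinase in both of its complexes, was given in the drinking water. The labels state 0.75 μM per g of body weight, and controls received no INK128. The paper's methods state the dose differently, as a concentration in the water and an amount per kg a day. These statements of the dose were not reconciled. Grafts were collected 1 month after transplantation and sequenced as polyadenylated RNA, with 2 INK128 libraries (replicates 1 and 2) and 2 control libraries (replicates 1 and 3). The labels do not say whether the libraries of a group came from separate animals, so p-values measured only the spread between these libraries. A graft dissected from the kidney can also hold recipient kidney tissue.

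The libraries held 19130209 to 23029089 counts. Log2 CPM correlated with r = 0.98 between the INK128 libraries and r = 0.806 between the controls, across genes. The controls stood apart from each other. Control replicate 1 held 46.4 CPM of 4 Y-linked genes, against 0 to 0.11 CPM in the other libraries, although donors and recipients were female. Control replicate 3 held 63.1 CPM of 12 oocyte markers summed, against 815 to 1120 CPM in the other libraries. Of 11 granulosa cell markers, the sums were 7300 and 9360 CPM with INK128 and 3920 and 7690 CPM in controls, and those of 7 theca and luteal markers were 3990 and 5230 CPM against 799 and 10900 CPM. Calls among the members and the values of several of them are therefore also given without each control. Values of the wider gene lists are given with both controls only.

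When nutrients are plentiful, mTORC1 phosphorylates the ULK1 complex and holds autophagy back, and it keeps TFEB and TFE3, transcription factors of lysosomal genes, in the cytoplasm. Autophagosomes then grow around their cargo as LC3 and GABARAP proteins are joined to lipid by the ATG conjugation enzymes, and they fuse with lysosomes. The V-ATPase has a cytosolic V1 sector that hydrolyses ATP and a membrane V0 sector that carries protons. Several subunits have isoforms that are used in particular tissues, such as kidney intercalated cells.

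TFEB and TFE3 bind the CLEAR element, whose core is TCACGTGA. This palindrome, the same on both strands, was searched in RefSeq promoter windows (GRCm38.p6) that run from 250 bases before to 50 bases after each transcription start. Windows were found for 40 of the 50 members, 45 windows in all, and 4 of them (8.89%) held the core, against 0.974% of all 32851 windows. The shorter palindrome CACGTG, which every core contains, was in 9 member windows (20%) and in 7.15% of all windows. Those 9 belonged to Atg3, Atg5, Atg7, Atg14, Atp6v0b, Atp6v0d1, Atp6v0e, Atp6v1a and Lamp1. No window was found for Becn1, Atp6v1g1, Atp6v1c1, Atg12, Atp6v1h, Map1lc3a, Atg16l1, Atp6v0d2, Atp6v1b2 and Atp6v0a2. The stretches around the 4 cores are shown because the log2 fold changes of these genes had different signs. The core is in capitals and its first base is counted from the start site as +1.
Atp6v0d1, chr8:105566061-105566104, minus strand, core from -4: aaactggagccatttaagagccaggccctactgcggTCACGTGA
Atp6v1a, chr16:44139348-44139427, minus strand, core from -132: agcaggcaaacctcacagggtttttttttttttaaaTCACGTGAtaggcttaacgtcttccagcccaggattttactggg
Atg3, chr16:45158721-45158800, plus strand, core from -72: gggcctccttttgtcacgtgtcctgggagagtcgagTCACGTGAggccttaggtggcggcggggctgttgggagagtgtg
Atp6v0e, chr17:26676362-26676405, plus strand, core from +3: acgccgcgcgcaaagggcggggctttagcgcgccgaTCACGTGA
The log2 fold changes (INK128 over control) of these 4 genes were 0.56 for Atp6v0d1, -1.13 for Atp6v1a, 0.20 for Atg3 and -0.08 for Atp6v0e, whose sign turned to 0.47 without Control replicate 1. None of the 4 passed the edgeR test described next. A match of letters is not a binding site, and factor binding was not measured.

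The median changes of the autophagy and V-ATPase transcripts lay near that of all tested genes, while members went both ways. The median log2 fold change was -0.10 over the 16 V-ATPase genes, from -3.03 to 0.83, and -0.06 over the 26 autophagy and lysosome membrane genes, from -0.79 to 1.51. The median of all 11758 tested genes was -0.03. A log2 fold change beyond 1 in either direction was found for 9.52% of the tested members and for 20.5% of all tested genes. In bulk tissue, fewer cells of a type and less RNA per cell cannot be told apart.

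Calls were made with edgeR's quasi-likelihood test, at a Benjamini-Hochberg adjusted p below 0.05 over all tested genes and a fold change above 1.5. No member was called higher, against 3.18% of all tested genes, and 1 member (2.38%), Atp6v0a4, was called lower, against 3.19%. At an unadjusted p below 0.05 in the same test, 7 members were higher (background 17.7%) and 4 were lower (background 18.7%). limma voom called 0 members and 0% of all tested genes in either direction, with 8 positive (background 18.3%) and 3 negative values (background 15.5%) at an unadjusted p below 0.05. DESeq2, which called more of the whole table, called 4 members higher (9.52%, background 13.6%) and 3 lower (7.14%, background 15.1%). The groups did not overlap for 12 members that were higher with INK128 (28.6%, background 34.5%) and for 15 that were lower (35.7%, background 34%). With 2 libraries a group, an exact permutation test cannot go below a two-sided p of 0.333.

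The counts depended on the control libraries. Without Control replicate 1, edgeR called 6 members higher (14.3%, background 22.7%) and 7 lower (16.7%, background 23.2%). Without Control replicate 3 it called 5 higher (11.9%, background 21.2%) and 3 lower (7.14%, background 21.4%). In these fits the lone control was assumed to vary like the INK128 libraries, which were close to each other. Map1lc3a, Gabarap, Atp6v1f and Atp6v1g1 were called higher and Atp6v0a4 and Atg2b lower without either control, and DESeq2 on all 4 libraries called the same 4 (9.52%) and the same 2 (4.76%). These 3 fits share both INK128 libraries, and 12.5% of all tested genes were called higher and 12.6% lower in all of them. When 1 INK128 library was left out instead, edgeR called 0 members and 0% of all tested genes in either direction.

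**Figure D1:**
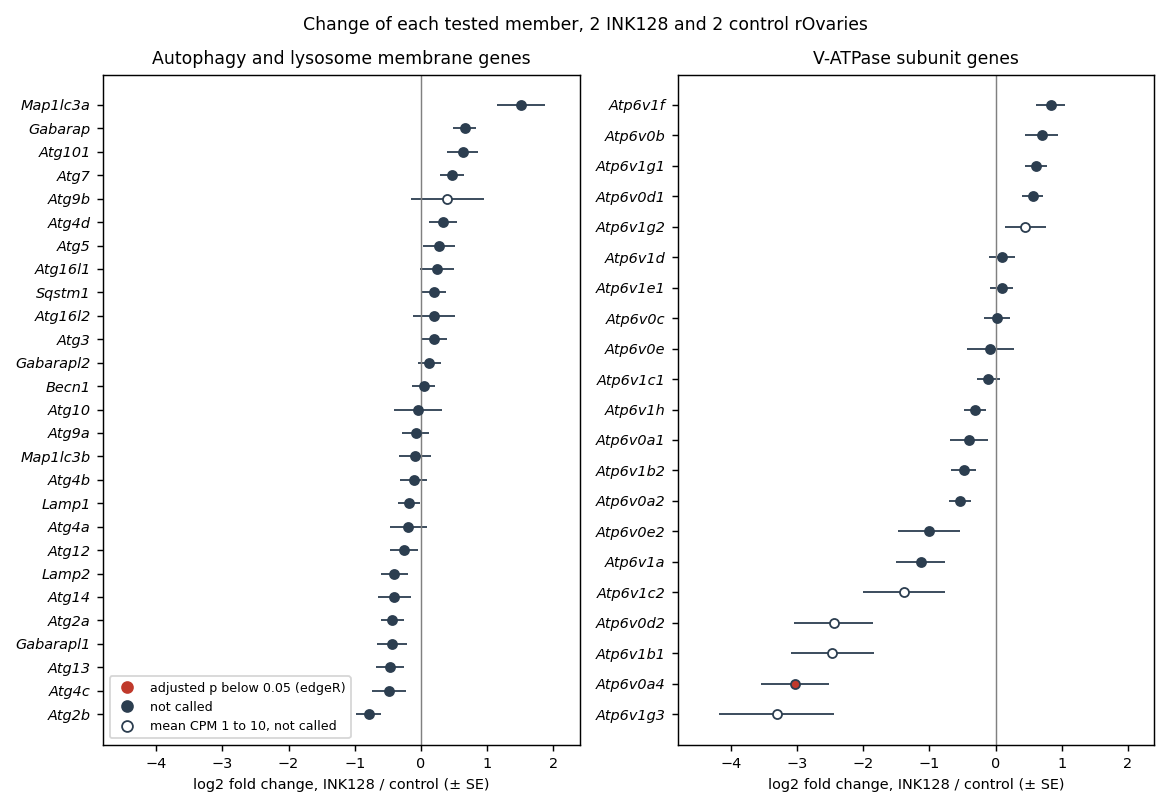
Log2 fold change (INK128 over control, x axis) with its standard error for each tested autophagy and lysosome membrane gene (left) and V-ATPase gene (right). Filled points are genes with a mean CPM above 10, open points are genes with a mean CPM between 1 and 10, and red marks the single call, Atp6v0a4 at -3.03. Map1lc3a has the highest value, 1.51, and the lowest values are those of Atp6v1g3, Atp6v0a4, Atp6v1b1 and Atp6v0d2.

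Among the 8 tested genes of the V1 sector, the median log2 fold change was -0.01, with 4 positive and 4 negative values. Atp6v1a encodes the catalytic A subunit, which hydrolyses ATP. It had 61.0 and 51.9 CPM with INK128 and 83.4 and 164 CPM in the controls, so the groups did not overlap and Control replicate 3 was the highest. The adjusted p was 0.105 in edgeR and 0.0255 in DESeq2, at a log2 fold change of -1.13 (standard error 0.37). Without Control replicate 3 the value was -0.56, and without Control replicate 1 it was -1.54. Atp6v1b2, the widely expressed B subunit that pairs with A, had a log2 fold change of -0.48 (edgeR adjusted p = 0.152).

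The highest V1 values were those of Atp6v1f and Atp6v1g1. Atp6v1f encodes the F subunit of the central rotor. It had 92.9 and 129 CPM with INK128 and 63.7 and 61.0 CPM in controls, and both treated libraries lay above both controls. The log2 fold change was 0.83 (standard error 0.22), with an adjusted p of 0.0766 in edgeR and 0.0161 in DESeq2. Atp6v1g1, the widely expressed G subunit of the peripheral stalk, had 156 and 162 CPM with INK128 and 103 and 105 CPM in controls. For Atp6v1g1 the edgeR adjusted p was 0.073 at a log2 fold change of 0.61 (standard error 0.16). The other stalk and rotor genes lay closer to 0, with 0.10 for Atp6v1d, 0.09 for Atp6v1e1, -0.11 for Atp6v1c1 and -0.31 for Atp6v1h, which encodes the regulatory H subunit.

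Over the 8 tested V0 genes the median log2 fold change was -0.24, with 3 positive and 5 negative values. Atp6v0b, which encodes the c'' subunit of the proton-carrying ring, had 90.7 and 131 CPM with INK128 and 62.3 and 74.5 CPM in controls. The groups did not overlap, and its log2 fold change was 0.70 (standard error 0.25, edgeR adjusted p = 0.124). Part of Atp6v0b, 11.8% of its exon bases, overlaps the gene model Gm12841 on the other strand, and the strand setting of the counting was not given in the sources used here. Atp6v0d1, the widely expressed d subunit that links the ring to the rotor, had a log2 fold change of 0.56 (edgeR adjusted p = 0.0815).

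The ring subunit Atp6v0c was near equal at a log2 fold change of 0.02, with 99.0 to 119 CPM in the 4 libraries. Atp6v0e2, an isoform of the small e subunit, had 64.1 and 59.4 CPM with INK128, 69.5 CPM in Control replicate 1 and, in Control replicate 3, 179 CPM. Its log2 fold change of -1.01 (standard error 0.47, edgeR adjusted p = 0.196) rested on Control replicate 3, and without that library it was -0.17. For the other e isoform, Atp6v0e, Control replicate 1 was the highest at 132 CPM and Control replicate 3 the lowest at 68.3 CPM. The a subunit anchors the pump in a given membrane, and its isoforms Atp6v0a1 and Atp6v0a2 had log2 fold changes of -0.40 and -0.54 (edgeR adjusted p = 0.365 and 0.102).

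Atp6v0a4 was the member called lower, and it passed the filter of a mean CPM above 10 only through the controls. It encodes the a4 isoform, known from acid-secreting cells of the kidney and the epididymis, and lies on chromosome 6 of mm10 from 38048483 to 38124586. It had 3.31 and 2.84 CPM with INK128, against 15.3 CPM in Control replicate 1 and, in Control replicate 3, 34.8 CPM. Both controls were above both treated libraries, with a mean of 3.07 ± 0.335 CPM (SD, n = 2) for INK128 and of 25.1 ± 13.8 CPM (SD, n = 2) for controls. The log2 fold change was -3.03 (standard error 0.51, edgeR adjusted p = 0.0486), a level 8.15-fold higher in controls. Without Control replicate 1 the log2 fold change was -3.50, and without Control replicate 3 it was -2.32. DESeq2 gave an adjusted p of 4.05e-06. The call was lost at a similar log2 fold change with exon length offsets (-2.89, edgeR adjusted p = 0.0887) and with voom (-2.93, adjusted p = 0.202). It was also lost without INK128 replicate 1 (-3.15, edgeR adjusted p = 0.381) and without INK128 replicate 2 (-2.92, edgeR adjusted p = 0.438). A share of its exon bases overlaps D630045J12Rik (5.21%) and Tmem213 (1.25%).

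Of the other V-ATPase isoforms of restricted tissues, all under the filter of a mean CPM above 10, Atp6v1b1, Atp6v1g3, Atp6v0d2 and Atp6v1c2 had lower values with INK128, none of which passed the edgeR test, and Atp6v1g2 had higher ones. Atp6v1b1, the B isoform of intercalated cells, had 1.16 and 2.88 CPM with INK128 and 15.2 and 8.06 CPM in controls. Atp6v1g3, a kidney G isoform, had 0.165 and 0.709 CPM against 6.0 and 3.21 CPM, from 3, 15, 132 and 74 counts. Atp6v0d2, the d isoform known from osteoclasts and kidney, had 1.38 and 1.51 CPM against 11.7 and 4.72 CPM. The controls lay above the treated libraries for all 3 genes, and Control replicate 1 was the highest each time.

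In an edgeR fit of all 17631 genes whose mean CPM exceeded 1, the log2 fold change was -2.47 for Atp6v1b1 (standard error 0.63, edgeR adjusted p = 0.0805), -3.31 for Atp6v1g3 (0.87, adjusted p = 0.0838) and -2.45 for Atp6v0d2 (0.60, adjusted p = 0.0761). Atp6v1c2, a C isoform of kidney and lung, had 1.87 and 1.28 CPM with INK128 against 5.87 and 2.69 CPM, a log2 fold change of -1.38 (edgeR adjusted p = 0.192). Without Control replicate 1 the values were -1.65 for Atp6v0d2 and -0.72 for Atp6v1c2, and without Control replicate 3 they were -2.96 and -1.85. Without INK128 replicate 1 the values were -1.98 for Atp6v1b1 and -2.66 for Atp6v1g3, and without INK128 replicate 2 they were -3.29 and -4.72. edgeR called 0 members and 0% of all genes in either direction in this wider set, while 8 had positive (background 15.1%) and 7 negative values (background 17.8%) at an unadjusted p below 0.05. DESeq2 on the same set called 5 higher, now with Atp6v0d1 (background 10.2%), and 6 lower (background 13.6%), and the lower ones included Atp6v1b1, Atp6v0d2 and Atp6v1g3, the last of which passed this filter only through the controls. With at least 1 count as the only filter, edgeR called 2 members higher (background 3.66%) and 5 lower (background 6.2%). Atp6v1g2, the G isoform of neurons, had 10.5 and 9.45 CPM with INK128 and 8.23 and 6.89 CPM in controls (log2 fold change 0.45, edgeR adjusted p = 0.358). The testis isoform Atp6v1e2 had 2, 0, 0 and 2 counts, and Atp6v1fnb had 0, 9, 0 and 1.

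Kidney markers are given beside these isoforms because grafts grew under the kidney capsule. All 11 markers of intercalated cells were lower in both INK128 libraries than in both controls, and they summed to 8.71 and 11.6 CPM with INK128 and to 112 and 46.4 CPM in controls. Only 1 of them, Avpr1a, was high enough to be tested, and it was not called (log2 fold change -2.33, edgeR adjusted p = 0.142). It passed the filter only through Control replicate 1, at 37.2 CPM, against 6.06 CPM in Control replicate 3 and 4.52 and 4.06 CPM with INK128. Of the 11, Dmrt2 had no read in either INK128 library and Slc4a9 none in INK128 replicate 1. The 10 proximal tubule markers were also lower without overlap, with sums of 78.5 and 177 CPM against 676 and 1520 CPM. edgeR called 6 of the 9 tested ones lower, beside 3.19% of all tested genes, and 4 of the 6 passed the filter only through the controls. Markers of the loop of Henle and distal tubule summed to 3.86 and 7.32 CPM against 30 and 150 CPM, with 5 of 7 lower without overlap. Lower values without overlap were found for 34% of genes with a mean CPM above 10 and 35.3% of those with a mean CPM above 1, and some markers lay below both levels.

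Principal cell markers did not follow in sum, with 195 and 195 CPM against 197 and 160 CPM, because Hsd11b2 made up most of it, although 6 of the 7 were lower without overlap. Podocyte markers summed to 285 and 312 CPM against 869 and 393 CPM, with 2 of 5 lower and 1 higher without overlap, where 30.9% of genes with a mean CPM above 1 were higher. The ratio of Control replicate 1 to Control replicate 3 was 2.41 for the summed intercalated markers, 2.21 for podocyte markers, 1.23 for principal cell markers, 0.445 for proximal tubule markers and 0.20 for loop and distal markers. It was 1.89 for Atp6v1b1, 1.87 for Atp6v1g3, 2.48 for Atp6v0d2 and 2.18 for Atp6v1c2. By contrast it was 0.439 for Atp6v0a4, 0.509 for Atp6v1a and 0.389 for Atp6v0e2. The part of kidney tissue in these differences was not tested.

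**Figure D2:**
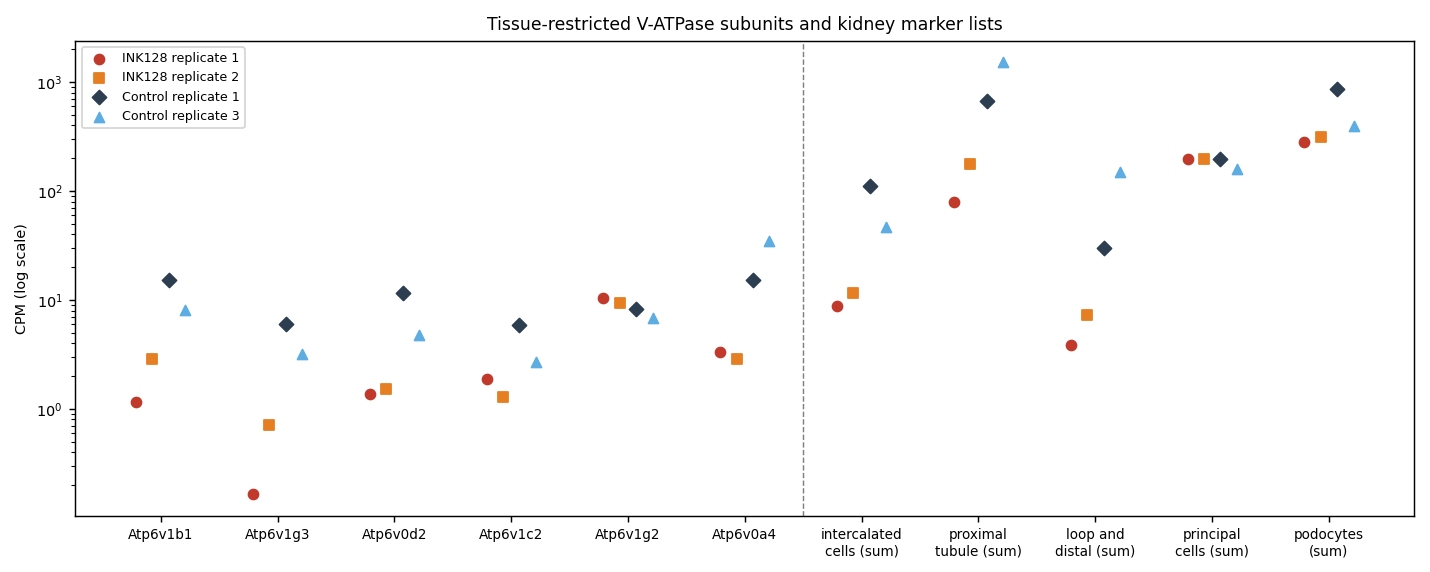
CPM (log scale) of 6 tissue-restricted V-ATPase isoforms and the summed CPM of 5 kidney marker lists in each library. Both controls lie above both INK128 libraries except for Atp6v1g2, where they lie below, and the principal cell sum, which overlaps. Control replicate 1 is the higher control for Atp6v1b1, Atp6v1g3, Atp6v0d2, Atp6v1c2 and the intercalated cell and podocyte sums, and Control replicate 3 is the higher for Atp6v0a4 and the proximal tubule and loop sums.

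Isoform shares were computed within each subunit family from CPM per kb of exon, with no test. Atp6v0a4 made up 3.0% and 2.08% of the a subunit transcripts with INK128 and 10.3% and 17.7% in controls. Tcirg1, which is no member by symbol but encodes the a3 isoform, made up 21.6% and 24.2% with INK128 and 10.4% and 12.8% in controls. Most of the family was Atp6v0a1 and Atp6v0a2 in every library. Atp6v1b1 was 1.69% and 3.70% of the B subunit with INK128 and 14.7% and 6.84% in controls, so Atp6v1b2 supplied at least 85.3% in each library by this length.

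Atp6v0d1 supplied at least 92.0% of the d subunit, Atp6v1g1 at least 93.4% of the G subunit and Atp6v1e1 at least 99.7% of the E subunit in each library. The C subunit was 90.3% and 93.4% Atp6v1c1 with INK128 and 77.0% and 87.4% in controls. With the principal transcript as the length, an alternative chosen after the data were seen, the lowest shares were 83.3% for Atp6v1b2, 92.2% for Atp6v0d1 and 91.4% for Atp6v1g1, and Atp6v1c2 in Control replicate 1 went from 23% to 13.4% of the C subunit. In the e subunit the controls differed most. Atp6v0e2 made up 45.2% in Control replicate 1 and 80.3% in Control replicate 3, with 54.6% and 46.8% with INK128 between or near them.

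No member that starts autophagosome formation was called by edgeR with all 4 libraries. Becn1 encodes Beclin 1 of the lipid kinase complex that marks the site of formation. It had 88.1 and 78.4 CPM with INK128 and 76.5 and 85.2 CPM in controls, and the groups overlapped (log2 fold change 0.04, standard error 0.17, edgeR adjusted p = 0.872). Its sign turned with library totals and without 2 of the libraries, and 43.9% of its exon bases overlap Cntd1 on the other strand. Atg14, which brings Beclin 1 to this complex, had a log2 fold change of -0.40. In the ULK1 complex, Atg13 had -0.47 (edgeR adjusted p = 0.184) and its partner Atg101 had 0.63 (edgeR adjusted p = 0.127). Each was without overlap between groups, so these partners pointed opposite ways. Atg13 had -0.32 without Control replicate 1 and -0.60 without Control replicate 3. For Atg101 the values were 0.81 and 0.48.

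The genes of the lipid transfer proteins that feed the growing membrane had negative values. Atg2b had 28.2 and 29.0 CPM with INK128 and 46.9 and 52.3 CPM in controls, without overlap. Its log2 fold change of -0.79 (standard error 0.19) had an adjusted p of 0.0626 in edgeR and 0.00793 in DESeq2. It is described because DESeq2 called it, after its values were seen. Its paralog Atg2a had -0.43 (edgeR adjusted p = 0.164). With exon length offsets the values were -0.18 for Atg2b and -0.05 for Atg2a. The scramblase gene Atg9a overlapped between groups at -0.08, and Atg9b, with 1.34 to 2.15 CPM, had 0.40 (edgeR adjusted p = 0.631). Of Atg9a, 31.8% of the exon bases overlap Gm29253.

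In the conjugation machinery the values were mixed, and none was called by edgeR or DESeq2 with all 4 libraries. Atg7, the E1-like enzyme that activates LC3 and ATG12, was higher in both INK128 libraries (47.4 and 44.9 CPM) than in both controls (33.2 and 33.6 CPM), with a log2 fold change of 0.47 (edgeR adjusted p = 0.140). The E2-like Atg3 had 0.20 and Atg10 -0.04. In the complex that places LC3 on membranes, Atg5 had 0.27, Atg12 -0.26, Atg16l1 0.24 and its paralog Atg16l2 0.20. For Atg5, Atg12, Atg16l1 and Atg16l2 the groups overlapped. Without Control replicate 1, Atg5 had 0.56 and Atg16l1 had 0.55, and without Control replicate 3 they had 0.03 and -0.01. The ATG4 proteases, which prepare LC3 and GABARAP proteins and recycle them, lay between -0.48 for Atg4c and 0.34 for Atg4d, with -0.19 for Atg4a and -0.11 for Atg4b.

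The LC3 and GABARAP genes, whose products coat the autophagosome, differed among themselves. Map1lc3a, on chromosome 2 of mm10 from 155276297 to 155278073, had 226 CPM in both INK128 libraries, 54.2 CPM in Control replicate 1 and, in Control replicate 3, 105 CPM. The treated libraries were nearly equal to each other and lay above both controls. Its log2 fold change of 1.51 (standard error 0.36), a 2.85-fold difference, had an edgeR p of 0.00969 before and 0.0629 after adjustment. By DESeq2 the adjusted p was 0.00118. Without Control replicate 1 the log2 fold change was 1.11, and without Control replicate 3 it was 2.06. With exon length offsets it was 0.96 (edgeR adjusted p = 0.227).

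Map1lc3b, the LC3 isoform usually followed as a marker of autophagosomes, overlapped between groups. It had 182 and 191 CPM with INK128 and 236 and 161 CPM in controls (log2 fold change -0.09, standard error 0.24, edgeR adjusted p = 0.802). The sign turned without Control replicate 1, where it was 0.21. Gabarap had 290 and 333 CPM with INK128 and 205 and 189 CPM in controls, without overlap. Gabarap had a log2 fold change of 0.66 (standard error 0.18), with an adjusted p of 0.0805 in edgeR and 0.00721 in DESeq2.

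Gabarapl1 pointed the other way. It had 132 and 167 CPM with INK128 against 179 and 226 CPM in controls (log2 fold change -0.44, standard error 0.23, edgeR adjusted p = 0.226). The value was -0.85 with exon length offsets, -0.60 without Control replicate 1 and -0.26 without Control replicate 3. Of its exon bases, 28.3% overlap 1700101I11Rik on the other strand. Gabarapl2 had 51.9 and 52.8 CPM against 45.4 and 50 CPM. Its groups did not overlap, but its log2 fold change was only 0.13 (standard error 0.17, edgeR adjusted p = 0.591) and its sign turned to -0.19 with exon length offsets.

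**Figure D3:**
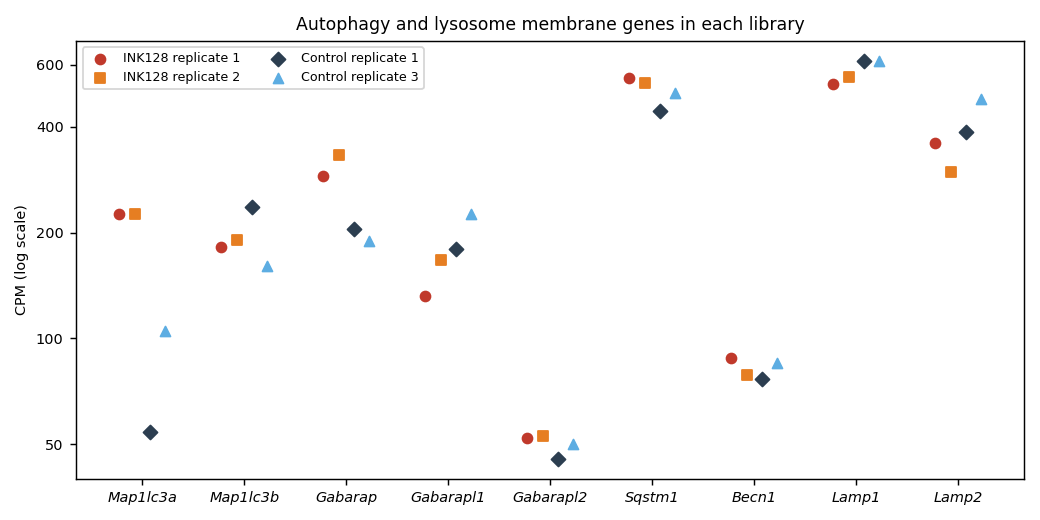
CPM (log scale) of the 9 named autophagy and lysosome genes in each of the 4 libraries. Map1lc3a at 226 CPM in both INK128 libraries and Gabarap at 290 and 333 CPM lie above both controls, whereas the Map1lc3b and Becn1 points of the groups overlap and Gabarapl1, Lamp1 and Lamp2 lie lower with INK128.

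Within the LC3 genes, per kb of exon, Map1lc3a made up 88.8% and 88.3% with INK128, 59.3% in Control replicate 1 and 80.5% in Control replicate 3. With the principal transcript as the length, its share was 73.9% and 72.9% with INK128 and 34.3% and 59.6% in controls. Which LC3 isoform led in Control replicate 1 thus depended on the length used, while the share was higher with INK128 under both. Gabarap made up 64.2% and 63.1% of the GABARAP family with INK128 and 50.6% and 43.3% in controls. Gabarapl1 made up 26.7% and 29.0% with INK128 and 40.5% and 47.5% in controls. It led in Control replicate 3 by this length, but by the principal transcript Gabarap led there, with 47.6% against 42.3%.

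**Figure D4:**
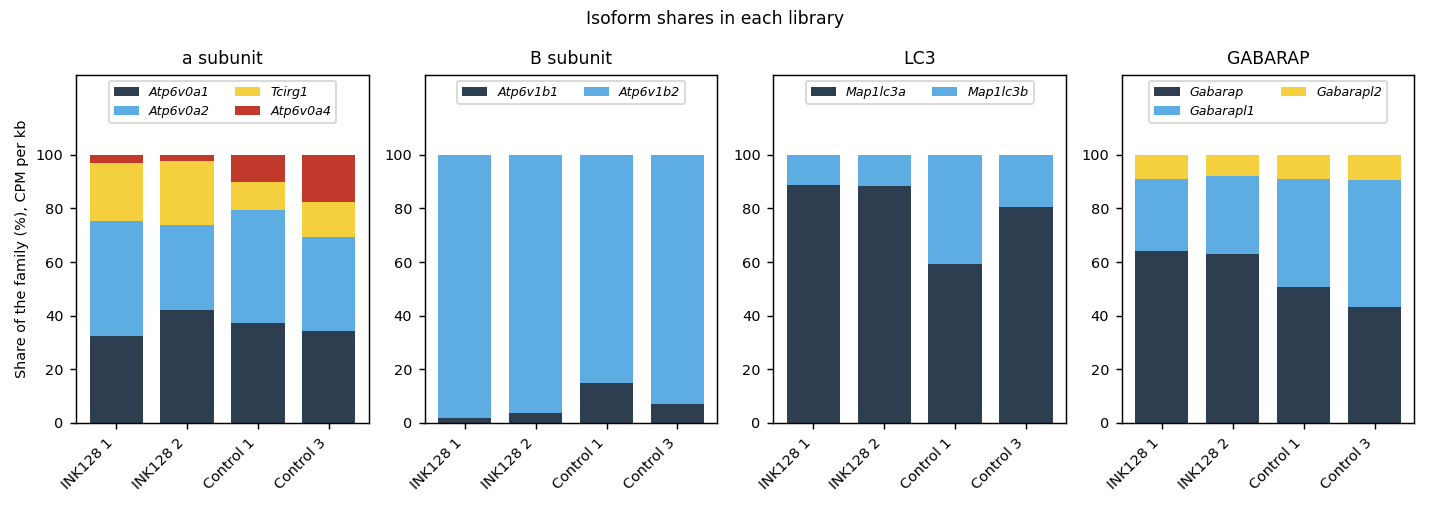
Share (%) of each isoform in the summed CPM per kb of exon of its family, as stacked bars that reach 100% in each library. Atp6v0a4 is 2.08% to 3.0% of the a subunit with INK128 and 10.3% and 17.7% in controls, and Map1lc3a and Gabarap take larger shares of their families with INK128.

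Sqstm1 encodes p62, a cargo receptor that binds ubiquitin and LC3 and is itself degraded by autophagy. It had 549 and 534 CPM with INK128 and 444 and 498 CPM in controls, without overlap. The log2 fold change was 0.20 (standard error 0.18, edgeR adjusted p = 0.444), and 17.3% of its exon bases overlap Mrnip on the other strand. The lysosomal membrane glycoproteins lay on the other side. Lamp1 had 530 and 556 CPM against 617 and 616 CPM (log2 fold change -0.18, standard error 0.17, edgeR adjusted p = 0.466). Lamp2, which also takes part in fusion with the autophagosome, had 359 and 298 CPM against 387 and 479 CPM (log2 fold change -0.40, standard error 0.21, edgeR adjusted p = 0.240). For Lamp2 the sign turned to 0.08 with exon length offsets. RNA levels do not measure autophagic flux or LC3 lipidation, which were not analysed here.

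Exon length was set beside the log2 fold change of the members. Of the 16 V-ATPase genes, the 8 whose exons were shorter than the median of all tested genes (4468 bases) had 0.32 as the median log2 fold change, with 6 positive. The 8 longer ones had a median of -0.44, with 1 positive. Of the 26 autophagy genes, the 14 shorter ones had a median of 0.05 with 7 positive, and the 12 longer ones a median of -0.09 with 5 positive. Across all tested genes the medians were 0.31 for the shorter and -0.35 for the longer. The short V-ATPase genes were Atp6v0b, Atp6v0c, Atp6v0d1, Atp6v0e, Atp6v0e2, Atp6v1e1, Atp6v1f and Atp6v1g1. Across the 16 V-ATPase genes, log2 fold change and log2 exon length had Pearson's r = -0.516, against -0.476 over the 26 autophagy genes and -0.315 over 11700 tested genes with a length. These are descriptions across genes measured in the same 4 libraries.

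With an offset for exon length in each library, r became -0.192 for the V-ATPase genes and 0.297 for the autophagy genes, and 0.02 for all genes. Of the 19 members with positive values, 12 had lower and 7 had higher values under the offsets. The lower ones included values of 0.30 for Atp6v1f, 0.10 for Atp6v1g1, 0.13 for Atp6v0d1, 0.24 for Gabarap and 0.96 for Map1lc3a, the last from 1.51. The higher ones included Atg7, from 0.47 to 0.80, and Atg16l1, from 0.24 to 0.71. Atg2b, the longest member at 13456 bases, went from -0.79 to -0.18. Atp6v0a4 went from -3.03 to -2.89 and Atp6v1a from -1.13 to -0.87. The cause of the relation with length was not tested.

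**Figure D5:**
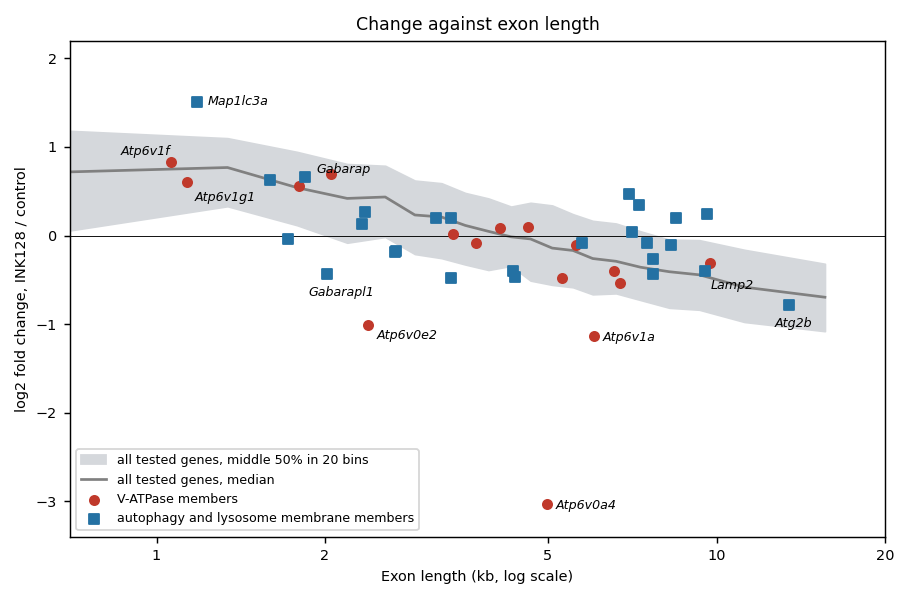
Log2 fold change (INK128 over control) against exon length (kb, log scale) for V-ATPase members (circles) and autophagy and lysosome membrane members (squares). The line and band give the median and middle 50% of all tested genes in 20 bins of length. The band falls from short to long genes, and 27 of the 42 members lie in it, 5 above it (Map1lc3a, Atg7, Atg4d, Atg16l1 and Atg16l2) and 10 below it, among them Atp6v0a4, Atp6v1a and Atp6v0e2.

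Further genes of the pathway came from written lists. Of 22 genes of autophagy initiation, nucleation and fusion, all were tested, and the median log2 fold change was -0.39. edgeR called 0 higher and 2 lower (DESeq2, 1 and 4), beside 3.18% and 3.19% of all tested genes (DESeq2, 13.6% and 15.1%). At an unadjusted edgeR p below 0.05, 1 was higher and 6 were lower (17.7% and 18.7% of all tested genes). Without overlap, 3 were higher and 12 lower (34.5% and 34% of all tested genes). Epg5, a tether that joins autophagosomes to lysosomes, had 13.8 and 10.8 CPM with INK128 and 42.2 and 41.3 CPM in controls (log2 fold change -1.76, edgeR adjusted p = 0.0464). Rb1cc1, the FIP200 scaffold of the ULK1 complex, had 40.0 and 35.4 CPM against 75.1 and 73.2 CPM (log2 fold change -0.98, edgeR adjusted p = 0.0496), and its value with exon length offsets was -0.33. Ulk2, a kinase related to ULK1, had the next lowest value at -0.86 (edgeR adjusted p = 0.0577). The largest positive values were 0.62 for the fusion SNARE Vamp8, 0.42 for Wdr45 and 0.20 for Wdr45b, with edgeR adjusted p of 0.0824, 0.191 and 0.492.

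Among 14 selective autophagy receptors and adaptors, 13 were tested with a median of -0.49, and edgeR called 0 higher and 3 lower (DESeq2, 1 and 4), beside 3.18% and 3.19% of all tested genes (DESeq2, 13.6% and 15.1%). In edgeR, 1 was higher and 5 were lower at an unadjusted p below 0.05, beside 17.7% and 18.7% of all tested genes. The 3 were Retreg1, a receptor for the endoplasmic reticulum (3.09 and 2.60 CPM against 24.6 and 31.4 CPM, log2 fold change -3.30), Wdfy3, the large scaffold ALFY (48.0 and 48.0 CPM against 119 and 161 CPM, -1.54), and Ncoa4, the ferritin receptor (31.8 and 28.8 CPM against 87.0 and 84.0 CPM, -1.50). The edgeR adjusted p was 0.0464 for each, and with exon length offsets the values were -3.28, -0.87 and -1.03. Retreg1 passed the filter only through the controls. Of the 13, 2 were higher and 9 lower without overlap, beside 34.5% and 34% of all tested genes. The mitochondrial receptor gene Fkbp8 had 0.64 and Pink1, the kinase that marks damaged mitochondria, had 0.24 (edgeR adjusted p = 0.115 and 0.334), and DESeq2 called Fkbp8 higher.

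Of 15 V-ATPase accessory and assembly genes, 14 were tested with a median of 0.10. edgeR called 0 higher and 2 lower (DESeq2, 1 and 4), beside the same shares of all tested genes. At an unadjusted edgeR p below 0.05, 1 was higher and 5 were lower (17.7% and 18.7% of all tested genes). Without overlap, 4 were higher and 5 lower (34.5% and 34% of all tested genes). Dmxl1, a subunit of the complex that reassembles V1 and V0, had 35.4 and 32.7 CPM against 75.9 and 97.5 CPM (log2 fold change -1.35), and Ncoa7, which binds V1, had 14.2 and 13.4 CPM against 55.7 and 64.3 CPM (-2.12). Both had an edgeR adjusted p of 0.0464, and their values with exon length offsets were -0.55 and -1.60, while Dmxl2, the paralog of Dmxl1, had -0.81 (edgeR adjusted p = 0.0834). The genes Tmem9, Ccdc115 and Tmem199, the last 2 for assembly factors, had 0.91, 0.83 and 0.56, with edgeR adjusted p of 0.112, 0.179 and 0.244.

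Lysosomal hydrolases and their activators had a median of 0.00 over 46 tested of 47, with 23 positive values. edgeR called 0 higher and 3 lower (DESeq2, 0 and 7), beside the same shares, 2 were higher and 9 lower at an unadjusted edgeR p below 0.05 (17.7% and 18.7% of all tested genes), and 9 were higher and 18 lower without overlap, beside 34.5% and 34% of all tested genes. Gm2a, the activator of ganglioside breakdown, had 189 and 203 CPM with INK128 and 988 and 574 CPM in controls (log2 fold change -2.0, edgeR adjusted p = 0.0469). The protease gene Lgmn had -1.60 (edgeR adjusted p = 0.0464) and the mannosidase gene Man2b1 had -1.25 (edgeR adjusted p = 0.0468). The largest positive values were 0.55 for Ctsz, 0.52 for Gla and 0.49 for Gaa, none of them called.

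Of 23 lysosomal membrane and positioning genes, 22 were in the table and 19 were tested, with a median of -0.24 and none called by edgeR. At an unadjusted p below 0.05 in edgeR, 2 of these were higher and 1 was lower (17.7% and 18.7% of all tested genes), and DESeq2 called the same numbers (13.6% and 15.1% of all tested genes). Cd63, a tetraspanin, had 561 and 484 CPM with INK128 and 254 and 308 CPM in controls (log2 fold change 0.89, edgeR adjusted p = 0.0611), and Laptm4a and Tmem192 had 0.67 and 0.23. The lowest values were -1.06 for Laptm5, a gene of blood cells, -0.53 for the ion channel gene Tpcn1 and -0.48 for Clcn6. Among 11 regulators of the MiT/TFE and FOXO families and their partners, 9 were tested, all with negative values and a median of -0.42. edgeR called 0 of them, with 2 lower at an unadjusted p below 0.05 (18.7% of all tested genes), and DESeq2 called 2 lower (15.1% of all tested genes). The lowest were Fnip1 at -0.99, Foxo3 at -0.81 and Foxo1 at -0.68, and Tfeb and Tfe3 had -0.11 and -0.08. The groups overlapped for Foxo3, Tfeb and Tfe3. With exon length offsets the signs of Tfeb, Tfe3 and Zkscan3 turned, to 0.11, 0.37 and 0.36.

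With exon length offsets, the list medians were -0.12 for initiation, -0.42 for receptors, -0.10 for accessory and assembly genes, -0.13 for hydrolases, -0.11 for lysosomal membrane genes and -0.23 for the regulators. Macrophages are rich in lysosomes, and 10 of 15 macrophage markers were lower with INK128 without overlap. The 15 summed to 493 and 451 CPM against 724 and 892 CPM. Of the 11 tested, edgeR called 0 and DESeq2 called 7 lower (3.19% and 15.1% of all tested genes). Lymphocyte markers summed to 9.87 and 7.99 CPM against 13.0 and 41.5 CPM, with 4 of 9 lower without overlap. None of these 9 was high enough to be tested. Lower values without overlap were found for 34% of genes with a mean CPM above 10 and 35.3% of those above 1. Neuronal markers summed to 94.3 and 85.1 CPM against 250 and 47.9 CPM. The part of these cells in the lysosomal genes was not tested.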

How the data were processed

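RNA-seq of 2 INK128 and 2 control rOvaries was analysed. According to the study's methods and the submitters' processing notes, reads were trimmed with Trimmomatic, aligned to mm10 with HISAT2 and counted per gene with featureCounts. Versions and the strand setting were not given in the sources used here. What the authors deposited were whole-number read counts for each gene symbol, with no normalization and no pooling of replicates. Libraries were matched to groups by their labels and to columns by name.

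CPM were computed with TMM factors. Tests used edgeR 4.0.16 (quasi-likelihood F-test, R 4.3.3) on genes with a mean CPM above 10 and Benjamini-Hochberg adjustment. The study also kept genes by a CPM above 10, without saying over which libraries. Calls needed a fold change above 1.5 at an adjusted p below 0.05. Each standard error was the absolute log2 fold change divided by the square root of F. DESeq2 1.42.0 and limma 3.58.1 (voom) were alternatives, as were other scalings, filters and thresholds, offsets for exon length or GC content, and leaving out each library. DESeq2 at a mean CPM above 1, the principal transcript length and the V-ATPase median without Atp6v0a4 were added after the data were seen. The fits were run on simulated data drawn with the same spread in every library. The real controls differed from each other more than the INK128 libraries did. The simulation therefore does not cover the tests under such unequal spread. A count of 3 was worth 0.13 to 0.165 CPM, a floor for counting error alone.

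The members, gene lists and markers were chosen with earlier results of these data known. Per-library values are given for called members, members without overlap at an absolute log2 fold change of 1 or more, tissue-restricted isoforms, the 9 named genes and the 3 largest rises and falls. Those of Atg2b, Atp6v1g1 and Atg7 are given outside these rules. From each pathway list, called genes and the 3 largest values in each direction are named. Positions, exon lengths and overlaps came from GENCODE M21 (mm10), with lengths for 99.5% of tested genes, and promoters from RefSeq (GRCm38.p6).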

Additional observations from a re-analysis of the deposited data

How the results depend on the processing

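The number of members called higher, 0 in edgeR, was 4 with DESeq2, 1 with a CPM above 10 in all 4 libraries (8% of all genes in that fit), 2 with at least 1 count as the filter (3.66%) and 4 at an adjusted p below 0.1 (13.1%), and it ranged from 0 to 6 when each library was left out. The number called lower, 1 in edgeR, was 3 with DESeq2, 5 with at least 1 count (6.2% of all genes), 2 at an adjusted p below 0.1 (13.5%) and 6 with DESeq2 at a mean CPM above 1, and 0 with voom, a CPM above 10 in all 4 libraries (7.14%), a mean CPM above 1, exon length offsets or GC content offsets. It ranged from 0 to 7 when each library was left out, with 7 without Control replicate 1, 3 without Control replicate 3 and 0 without either INK128 library. The filter of a CPM above 10 in all 4 libraries removes Atp6v0a4. For the other counts the cause was not tested. The edgeR adjusted p of Atp6v0a4 was 0.0558 at a mean CPM above 1 and 0.0522 with GC content offsets, at log2 fold changes of -2.97 and -2.92.

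The V-ATPase median of -0.10 was -0.03 with upper quartile scaling, -0.22 with library totals, -0.26 at a mean CPM above 1, 0.01 with exon length offsets and 0.06 with GC content offsets, and -0.21 to -0.08 when each library was left out. The autophagy median of -0.06 was 0.00 with upper quartile scaling, -0.19 with library totals, 0.01 at a mean CPM above 1, -0.01 with at least 1 count, 0.09 with exon length offsets and 0.08 with GC content offsets, and -0.13 to 0.08 when each library was left out. Library totals moved the median of all tested genes from -0.03 to -0.15.

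Signs were followed under each alternative for the 19 members picked by the rules above, which leave out Atg2b, Atp6v1g1 and Atg7. The sign turned for Becn1 (-0.08 with library totals, -0.06 without INK128 replicate 1, -0.03 without Control replicate 1, up to 0.12 without INK128 replicate 2). It also turned for Gabarapl2 (-0.19 with exon length offsets), Lamp2 (0.08 with exon length offsets) and Map1lc3b. Map1lc3b had 0.27 with exon length offsets, 0.21 without Control replicate 1, and down to -0.34 without Control replicate 3. Of 274 values of these 19 members under the alternatives, 228 kept their direction and their side of the adjusted p threshold. Another 33 newly passed that threshold, 6 no longer passed it and 7 turned sign. The 33 were not all calls. Lamp2 without Control replicate 1 (-0.55) and Atp6v1a without Control replicate 3 (-0.56) were among them but missed the fold change limit. Over all 48 members with a log2 fold change, signs turned for 10 with exon length offsets, 4 with library totals, 7 without Control replicate 1 and 2 without Control replicate 3. No paired analysis was possible because the groups share only replicate number 1.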
